A study of Daphnia magna with 20 samples.

Results

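The comparison sets whole Daphnia magna exposed for 48 h to lithium cobalt oxide (LCO) at 10 mg/L against unexposed animals. It rests on 10 of the 20 libraries of the series, the 5 titled high and the 5 titled control, which carry the same replicate numbers (1, 2, 4, 5 and 6). All animals were wild type and 5 days old at the start. Controls were kept in moderately hard water alone, and exposed animals in the same water with the nanomaterial. Each library came from a pool of 10 whole animals, so the values average over all tissues. The other 10 libraries are animals at 1 mg/L LCO and animals given 66 µg/L lithium and 15 µg/L cobalt as chlorides, the dissolved metal that the higher LCO dose gives off. They entered the fit and are shown beside the results. Replicate 1 at 10 mg/L is tagged as untreated in one label field. Its title gives the higher dose, and it was grouped by its title. The counts of called targets are also given without it. All animals were fed alfalfa at the start and after 24 h.

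Daphnia magna is a filter-feeding freshwater crustacean that collects suspended particles from the water and passes them through its gut, which makes it a common test animal for particulate pollutants. LCO is a cathode material of lithium-ion batteries and a layered oxide that releases lithium and cobalt ions in water. The title of the series names a shortage of energy in the exposed animals as its subject, and the comparison asks which transcripts changed at the higher dose. The files hold 26646 transcript targets. Looked up in the RefSeq gene table, 0 of the 26646 identifiers were found. Names, functions, genome positions and sequences are therefore left out, and targets are described by abundance, length, identifier order and size of change.

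Summed over targets, estimated counts of a library lay between 24422294 and 42458093 in control and between 27241458 and 44181066 at 10 mg/L. Levels are given as CPM, counts scaled to library depth with TMM factors, and levels set between targets are given as TPM, which also accounts for target length. The groups differed in 2 technical measures. The TMM factor ran from 0.928 to 0.986 in control and from 1.01 to 1.05 at 10 mg/L. Target length minus effective length, a library-wide value that follows the length of the sequenced fragments, ran from 159 to 163 bases in control and from 146 to 160 bases at 10 mg/L. Their part in the results was not tested across libraries. LCO 10 mg/L replicate 6, at 160 bases, lay within the control range on the second measure. Its TMM factor of 1.02 lay above the control range. Its values are given separately below.

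With LCO at 10 mg/L many transcripts changed by small amounts, and the large changes were mainly falls. Of 16163 targets with enough counts, edgeR's quasi-likelihood test called 4916 (30.4%) at an adjusted p under 0.05, 2210 higher (13.7%) and 2706 lower (16.7%). At an unadjusted p under 0.05 there were 6692 (41.4%). Without replicate 1 at 10 mg/L, the library with the contrary tag, 1899 were called higher and 2542 lower. The median size of change was 1.63-fold among the higher and 1.64-fold among the lower targets. Of the 4916 called targets, 1934 moved by at most 1.5-fold (12% of all 16163 tested). Above 2-fold the directions stood at 723 higher (4.47%) and 935 lower (5.78%). Above 4-fold they stood at 147 higher (0.909%) and 476 lower (2.94%), and above 8-fold at 46 higher (0.285%) and 287 lower (1.78%). The 5 exposed values lay all above or all below the 5 control values for 1370 called higher targets (8.48% of those tested) and 1724 called lower targets (10.7%). Called or not, the groups did not overlap for 9.39% of tested targets upwards and 11.3% downwards, 20.7% in all.

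**Figure D1:**
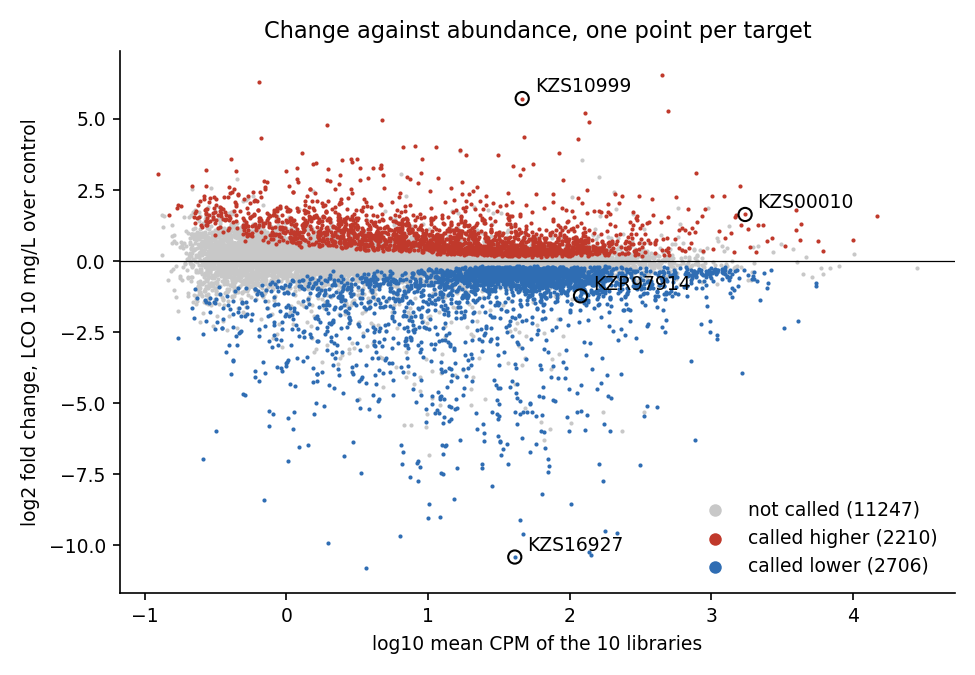
Log2 fold change of LCO 10 mg/L over control (vertical) against log10 mean CPM of the 10 libraries (horizontal), with a point for each of the 16163 tested targets; red points were called higher, blue points lower, grey points not called, and circles mark the named targets. Blue points reach much farther from 0 than red points, with 287 targets over 8-fold lower and 46 over 8-fold higher.

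The falls took a large part of the RNA pool. Targets called lower held 36.9% ± 1.8 of all estimated counts in control and 22.3% ± 1.22 at 10 mg/L, and targets called higher held 12.9% ± 0.978 in control and 25.4% ± 1.45 at 10 mg/L (SD, n = 5 each). The groups did not overlap in either share, which follows from how the targets were chosen and was not tested. The gain was concentrated in few targets and the loss was spread over many. The 10 targets with the largest gain in mean CPM made up 36.8% of the summed gain of the called higher targets, and 21 targets made up 50% of it. The 10 targets with the largest loss made up 16.2% of the summed loss of the called lower targets, and 125 targets were needed for 50% of it. Because whole animals were sequenced, fewer cells of a type and less RNA per cell cannot be told apart in any of these changes.

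Abundant transcripts fell more often than they rose, and rare transcripts rose more often than they fell. Tested targets were divided into 10 equal bins by their mean CPM over the 10 libraries. In the most abundant bin, above 107 CPM, 32.5% of targets were called lower and 16.3% higher. In the least abundant bin, below 0.648 CPM, 4.14% were called lower and 8.04% higher. The share called lower grew in every step from the lowest to the highest bin, while the share called higher stayed between 13.2% and 16.3% above 1.62 CPM. The percent called higher minus the percent called lower was 3.90 in the least abundant bin. Leaving out control replicate 6, 1 or 4 gave 1.98, 2.35 and 2.41, and leaving out replicate 1 or 2 at 10 mg/L gave 2.54 and 2.41. In the most abundant bin the difference was -16.2, and -17.7 to -12.9 with each library left out. The median log2 fold change of all targets in a bin, called or not, fell from 0.21 in the lowest to -0.10 in the highest.

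Direction also went with target length. In the longest bin, from 6113 bases upwards, 19.2% of targets were called higher and 13.2% lower. This difference of 6.06 was 3.90 without control replicate 4 and 9.73 at a mean of at least 5 CPM. In the bin from 866 to 1184 bases, 10.6% were called higher and 20.7% lower. In the shortest bin, up to 540 bases, the shares were 10.6% and 10.9%, an order that turned over under some other settings. The median length was 2344 bases for the called higher targets, 1743 for the called lower targets and 1866 for all tested targets. The length of the sequenced fragments differed between the groups as given above. In limma on log2(TPM + 1), where the authors' TPM takes effective length into account, 15.5% of the longest and 10% of the shortest bin were called higher.

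**Figure D2:**
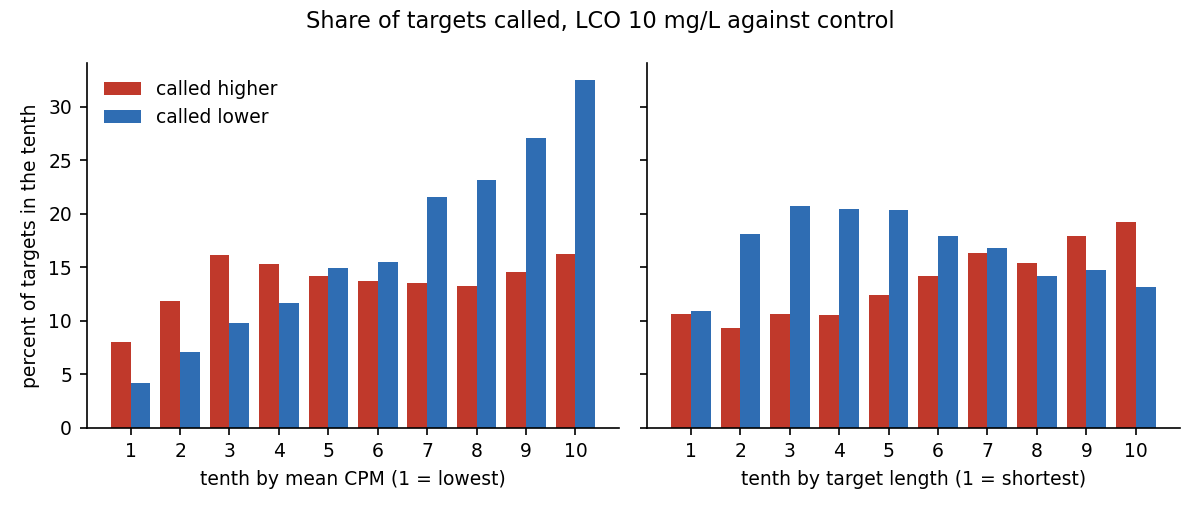
Percent of tested targets called higher (red) and lower (blue) at LCO 10 mg/L in 10 equal bins by mean CPM of the 10 libraries (left) and by target length (right). The share called lower climbs from 4.14% to 32.5% with abundance, and the share called higher exceeds the share called lower in the longest bin (19.2% against 13.2%).

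Mean target length, the number of detected targets and the share of the most abundant targets were also compared as single values per library, with an exact two-sided permutation test adjusted over 4 values. The count-weighted mean target length was 3289, 3399, 3269, 3417 and 3309 bases in control replicates 1, 2, 4, 5 and 6, and 3432, 3507, 3541, 3463 and 3548 bases in the same-numbered libraries at 10 mg/L. Every exposed library lay above every control library, by 162 bases at the mean (exact p = 0.0079, adjusted p = 0.016). Replicate 6 at 10 mg/L had the highest value of the 10 libraries. The part of fragment length in this difference was not tested. Weighted by TPM in place of counts, the difference turned to -68.8 bases (exact permutation test, adjusted p = 0.024).

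More targets were detected after exposure. For this measure CPM was the rounded count over the library total, without TMM factors, which differed between the groups. The number of targets at 1 CPM or more ran from 13325 to 13482 in control and from 13554 to 13709 at 10 mg/L. The groups did not overlap, and the mean difference was 262 targets (exact permutation test, n = 5 each, p = 0.0079, adjusted p = 0.016). The number with TMM factors was not tested. At the lower limit of 0.1 CPM the difference was 181 targets with an adjusted p of 0.079 in the same exact test. The 10 most abundant targets of each library held 9.86% ± 0.894 of its counts in control and 11.5% ± 0.657 at 10 mg/L, and the 100 most abundant held 28.7% ± 1.23 and 30.8% ± 1.07 (SD, n = 5; exact permutation test, p = 0.016 and adjusted p = 0.016 for each). The ranges overlapped in these shares. As shares of TPM the differences were larger, at 8.30 percentage points for the top 10 and 6.60 for the top 100 (adjusted p = 0.011 for each in the same exact test), beside 1.69 and 2.13 points for counts. TPM rests on effective length, which differed between the groups as given above, and its part in these shares was not tested. The smallest p this design can give is 0.0079.

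Each exposed pool moved the same way as the others on targets called without it. Each of the 10 libraries was left out in turn, targets were called without it, and its log2 CPM was set against the mean of the other control libraries. The control libraries of that mean also helped to choose the targets, which favours a difference from control in a left-out exposed library. Scaling of log2 CPM used all 20 libraries. Left-out LCO 10 mg/L libraries lay between 0.52 and 0.85 above control at the median of the 1729 to 2127 targets called higher, and 96.6% to 99.7% of those targets were above control. On the 2156 to 2774 targets called lower they lay at -0.86 to -0.44, with 95.2% to 99.95% of targets below control. Over all tested targets their medians were 0.01 to 0.04. Left-out control libraries lay at -0.05 to 0.22 and -0.13 to 0.04 on the corresponding lists. On the targets called over 2-fold lower the control libraries were less even, at -0.89 in replicate 1, 0.19 in replicate 2, -0.53 in replicate 4, -0.04 in replicate 5 and 0.39 in replicate 6, beside -1.94 to -1.62 at 10 mg/L. No exposed library lay in the control range on either list. Replicate 1 at 10 mg/L, whose tag reads untreated, lay at 0.61 and -0.65. Replicate 5 at 10 mg/L was the closest to control (0.52 and -0.44) and replicate 6 the farthest (0.85 and -0.86). The part of the technical measures in this order was not tested.

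**Figure D3:**
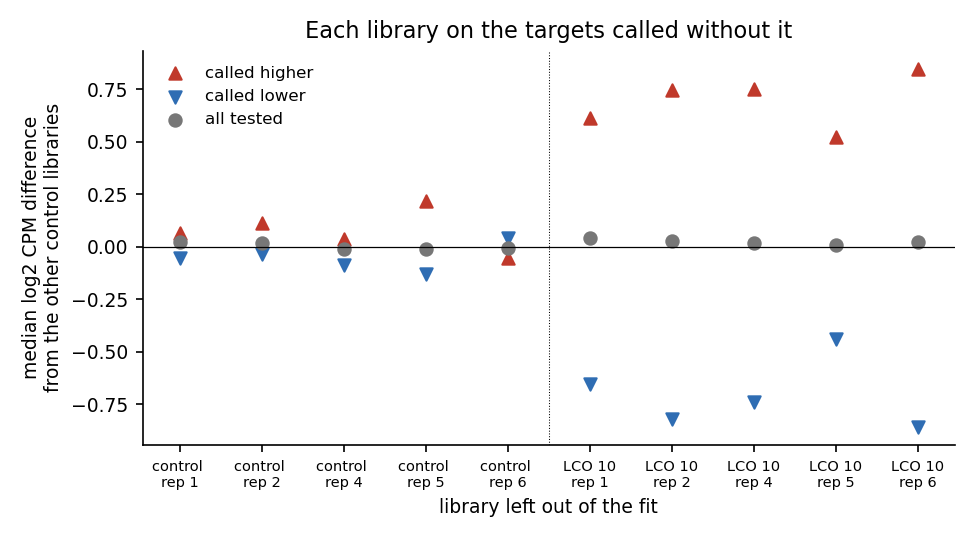
Median log2 CPM difference of each library from the other control libraries, over targets called higher (red), called lower (blue) and all tested targets (grey) in a fit that left that library out. The 5 LCO 10 mg/L libraries lie at 0.52 to 0.85 and -0.86 to -0.44, and the control libraries within 0.22 of 0.

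The 287 targets that fell over 8-fold were uneven among control pools and evenly low after exposure. Their median level in control replicates 1, 2, 4, 5 and 6 was 11.3, 15, 4.27, 5.85 and 22.6 CPM, and in the same-numbered libraries at 10 mg/L it was 0.84, 0.61, 0.68, 0.66 and 0.81 CPM. The control pools thus spanned a wide range and the exposed pools a narrow one. The median SD of log2 CPM over these targets was 1.67 within control and 0.57 within LCO 10 mg/L, beside 0.30 and 0.22 over all tested targets. These targets were chosen for low values at 10 mg/L, and the prior count in log2 CPM narrows the spread of low values. Control replicate 6 held the highest control value for 122 of the 287, replicate 1 for 65, replicate 2 for 62, replicate 4 for 25 and replicate 5 for 13. Together these targets made up 2.58% ± 0.716 of all counts in control and 0.116% ± 0.0278 at 10 mg/L (SD, n = 5). For 192 of the 287 the groups did not overlap, beside 11.3% of all tested targets in this direction. A high share follows from how the 287 were chosen and was not tested. The number over 8-fold lower lay between 267 and 322 with each of the 10 libraries left out, and 241 of the 287 stayed called lower without control replicate 1.

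In the other exposures the same targets took different positions. At 1 mg/L the median level of the 287 ran from 1 to 9 CPM across the 5 libraries, overlapping the control range in 2 of them, and with dissolved lithium and cobalt it ran from 0.83 to 1.92 CPM. The libraries with ions thus lay almost as low as those at 10 mg/L LCO (0.61 to 0.84), with the lowest ion library inside that range. All these levels are read against the same control libraries, and the targets were chosen for their fall at 10 mg/L.

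The 46 targets that rose over 8-fold were low in every control library, with medians of 0.94, 0.34, 1.03, 0.5 and 0.38 CPM in control replicates 1, 2, 4, 5 and 6. At 10 mg/L the medians were 13.3, 9.84, 6.07, 9.9 and 7.95 CPM. At 1 mg/L they ran from 2.93 to 7.32 CPM and with ions from 1.36 to 3.86 CPM. The 46 were chosen for their rise at 10 mg/L, which favours low control values and higher values at 10 mg/L. The summed level of the 46 was uneven among exposed pools, at 3497, 2397, 1888, 10364 and 6737 CPM, with replicates 5 and 6 highest. In control it was 860 CPM in replicate 1 and 97.1 to 281 CPM in the others. Without control replicate 1 the number of targets over 8-fold higher was 83 in place of 46. At a mean of at least 5 CPM it was 23, and without a filter 90.

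**Figure D4:**
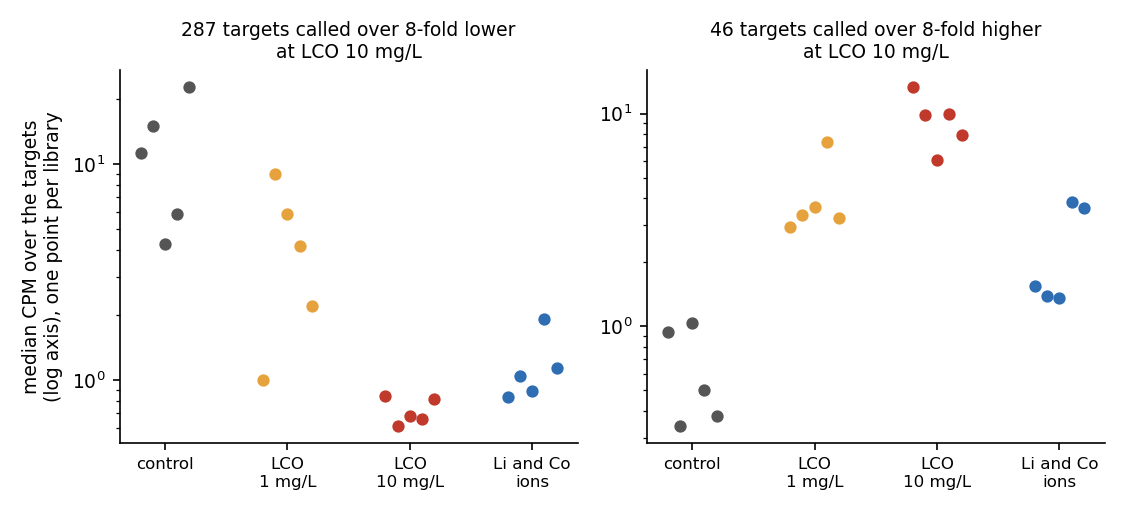
Median CPM (log axis) over the 287 targets called over 8-fold lower (left) and the 46 called over 8-fold higher (right) at LCO 10 mg/L, with a point for each of the 20 libraries. Control libraries range from 4.27 to 22.6 CPM on the left, whereas LCO 10 mg/L libraries lie between 0.61 and 0.84 CPM.

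No target with at least 10 counts in every exposed library was at 0 in all 5 control libraries. The reverse was found for 2 targets, singled out after their values were seen. The first had 13, 387, 11, 118 and 102 counts in control replicates 1, 2, 4, 5 and 6 and 0 in every library at 10 mg/L. It was at least 216-fold lower, against a limit of 3 counts over the group (adjusted p = 0.0086 in edgeR's quasi-likelihood test). The second had 39, 664, 15, 174 and 246 counts and was at least 390-fold lower (adjusted p = 0.0075). Both were highest in control replicate 2 and lowest in replicate 4. Without control replicate 2 they were at least 108-fold and 211-fold lower. Counts above 0 appeared in 1 and 2 of the 5 ion libraries and reached 268 and 629 in a library at 1 mg/L. These limits cover counting error only.

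The largest rises in TPM included those of some short targets. Of the 10 called, non-overlapping targets with the largest rise in mean TPM, 4 were shorter than 540 bases, and together the 10 went from a summed mean of 47393 TPM in control to 149753 TPM at 10 mg/L. KZS00010, of 204 bases, had the largest rise. It stood at 776, 716, 961, 1062 and 698 CPM in control replicates 1, 2, 4, 5 and 6 and at 2087, 2715, 3196, 2061 and 3061 CPM in the same-numbered libraries at 10 mg/L. Every exposed library was above every control library, as the choice of targets required. The log2 fold change was 1.64 (SE 0.26, adjusted p = 0.00021 in edgeR's quasi-likelihood test). Its counts were whole numbers in all 10 libraries. Its mean level in control was 843 CPM but 16276 TPM, so its rank by TPM depends on its short length.

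KZS00010 took other levels in the other exposures. It stood at 1028 CPM ± 287 at 1 mg/L, where the difference from control did not pass the threshold (log2 fold change 0.29, SE 0.26, edgeR adjusted p = 0.52), and at 562 ± 234 with ions (log2 fold change -0.58, SE 0.26, adjusted p = 0.068; SD, n = 5). On the log2 scale the level at 10 mg/L was 1.35 above that at 1 mg/L (SE 0.26, edgeR adjusted p = 0.0055) and 2.22 above that with ions (SE 0.27, adjusted p = 0.00012). Among the 10 targets with the largest rise in TPM, 7 differed between the LCO doses and 6 differed from the ions, each of the 6 higher with LCO at 10 mg/L. The 10 were chosen for their rise at 10 mg/L, which favours higher values there. Shares over all tested targets are not given for these 2 comparisons, so the counts describe the 10 only. The targets of rank 3, 4 and 7 carry consecutive identifier numbers. Their log2 fold changes were 1.80, 1.55 and 1.61 at 10 mg/L, 0.40, 0.22 and 0.20 at 1 mg/L, and -0.63, -0.73 and -0.50 with ions. The target of rank 10, of 6385 bases, showed 1.58, 0.23 and -0.82 in the same order. Others of the 10 were high in the ion libraries too. The target of rank 6 had log2 fold changes of 2.30 at 10 mg/L and 2.54 with ions, and 0.31 at 1 mg/L. The target of rank 5 was the only one of the 10 as high at 1 mg/L as at 10 mg/L, with log2 fold changes of 0.80 and 0.74.

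KZS10999, of 1195 bases, had the largest log2 fold change upwards under the naming rule. It stood at 3.25, 0.6, 2.21, 1.53 and 0.92 CPM in control replicates 1, 2, 4, 5 and 6 and at 27.2, 12.9, 5.41, 270 and 138 CPM at 10 mg/L. The exposed libraries were all above control, as the naming rule required, but far apart among themselves, with replicates 5 and 6 highest. The log2 fold change was 5.72 (SE 1.55, adjusted p = 0.0094 in edgeR's quasi-likelihood test). It was 4.74 without LCO 10 mg/L replicate 5 (edgeR adjusted p = 0.023) and 4.06 in limma on log2(TPM + 1) (adjusted p = 0.023). With ions it ran from 1.47 to 356 CPM, a wide spread again, and at 1 mg/L from 0.39 to 11.6 CPM. The test between 10 mg/L and 1 mg/L gave a log2 fold change of 5.08 (edgeR adjusted p = 0.051), and that between 10 mg/L and ions gave -0.30 (SE 1.24, adjusted p = 0.88). In 8 of the 10 libraries its estimated count was not whole, as happens when reads are split among similar targets, and its level is uncertain.

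KZR97914, of 134 bases, had the largest fall in mean TPM. It stood at 164, 155, 222, 162 and 133 CPM in control replicates 1, 2, 4, 5 and 6 and at 109, 65.2, 95.8, 31.6 and 55.2 CPM at 10 mg/L. The groups did not overlap, as the naming rule required. The log2 fold change was -1.23 (SE 0.31, adjusted p = 0.0061 in edgeR's quasi-likelihood test). At 1 mg/L it stood at 159 CPM ± 47.5 and with ions at 121 ± 42.9 (SD, n = 5). It was lower at 10 mg/L than at 1 mg/L (log2 fold change -1.16, SE 0.31, edgeR adjusted p = 0.031), and the difference from ions did not pass the threshold (-0.76, SE 0.31, adjusted p = 0.075). The target was chosen for its fall at 10 mg/L, which favours lower values there. Its estimated counts were not whole in all 10 libraries and it is close to the shortest length in the files (121 bases), so its level is uncertain as well.

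The targets of rank 2, 3 and 4 by fall in TPM were longer than KZR97914 and fell more steeply. Those of rank 7 and 8 fell less, with log2 fold changes of -0.70 and -0.90. The target of rank 2, of 1641 bases, went from 5645 to 1312 TPM (log2 fold change of counts -2.11). Those of rank 3 and 4, with consecutive identifier numbers, went from 4459 to 783 TPM and from 4083 to 612 TPM (log2 fold changes -2.50 and -2.74). These 3 targets were also low with ions, at 1756, 1019 and 512 TPM, and stood between control and the higher dose at 1 mg/L, at 3853, 2727 and 2251 TPM. All 10 targets with the largest fall in TPM were lower at 10 mg/L than at 1 mg/L in edgeR's test at an adjusted p under 0.05. From the ions, 3 of the 10 differed. Those of rank 5 and 6 were lower with ions than with LCO. That of rank 9 was lower with LCO, at 413 TPM against 1307 with ions and 1800 in control. These 10 were chosen for their fall at 10 mg/L, which favours lower values there. Without shares over all tested targets, the counts describe the 10 only.

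KZS16927, of 1153 bases, had the largest log2 fold change downwards under the same rule. It stood at 8.32, 127, 5.22, 56 and 213 CPM in control replicates 1, 2, 4, 5 and 6 and at 0.11, 0.031, 0.066, 0.03 and 0.049 CPM at 10 mg/L, where the libraries held only 3, 1, 3, 1 and 2 counts. Control pools differed widely, and every exposed pool was close to the limit of detection. The log2 fold change was -10.42 (SE 1.80, adjusted p = 0.00038 in edgeR's quasi-likelihood test) and -9.69 without control replicate 6. In limma on log2(TPM + 1), a scale that understates changes of low targets, it was -5.49 (adjusted p = 0.00086). At 1 mg/L it ran from 0.44 to 47.3 CPM and with ions from 0.049 to 6.7 CPM. It was lower at 10 mg/L than at 1 mg/L (log2 fold change -8.23, SE 1.73, edgeR adjusted p = 0.0086), and the difference from ions was -4.75 (SE 1.76, adjusted p = 0.054). The choice of this target for its fall at 10 mg/L favours lower values there. Estimated counts of this target were not whole in 5 of the 10 libraries.

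**Figure D5:**
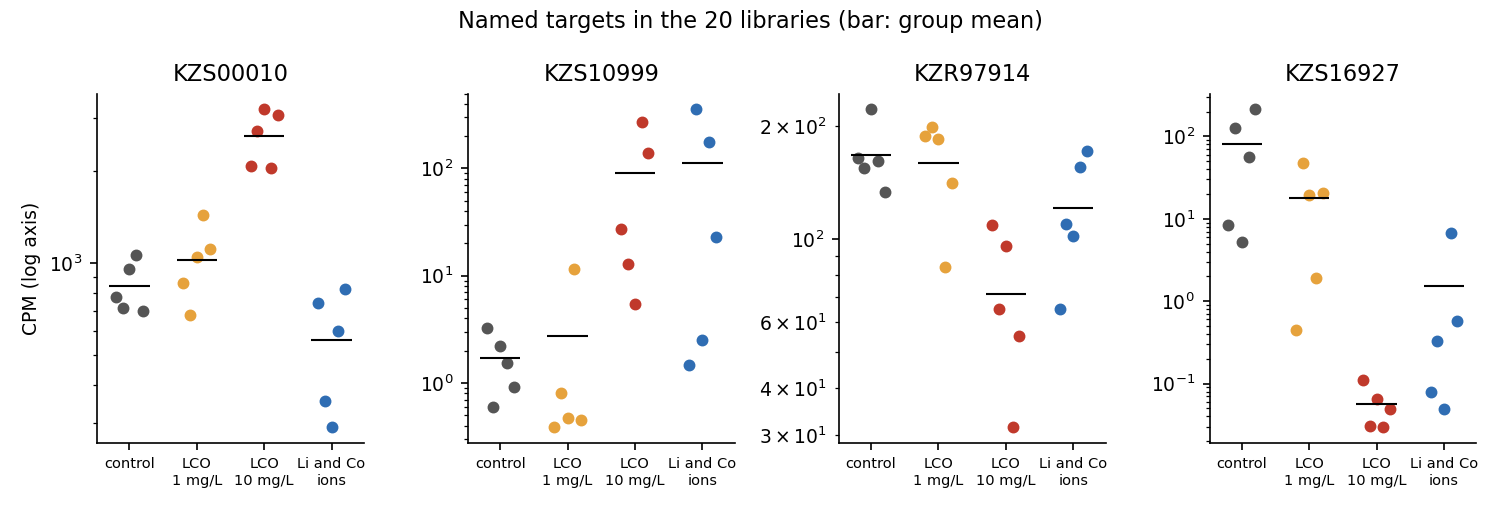
CPM (log axis, a separate scale in each panel) of the 4 named targets in the 20 libraries; points are libraries and bars are group means of 5. KZS00010 is highest in the LCO 10 mg/L libraries (2061 to 3196 CPM), and KZS16927 falls from 5.22 to 213 CPM in control to 0.03 to 0.11 CPM at LCO 10 mg/L.

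Targets with consecutive identifier numbers often moved together. Among tested targets whose next number was also tested, a target called lower was followed by another called lower in 26.2% of 2211 cases, where 18.3% of all such next targets were called lower. A target called higher was followed by another called higher in 19.3% of 1672 cases, where 13.8% of all were. With only the targets whose counts were whole in all 10 libraries, the shares were 26.2% beside 19.4%, and 18.6% beside 13.4%. These are descriptions, since neighbouring numbers need not be independent and the files do not say how the numbers were given. Runs of at least 3 consecutive numbers called the same way numbered 109 for lower targets and 48 for higher targets, with 385 and 160 members. Members of runs held 14.2% of the called lower and 7.24% of the called higher targets, and 82 of the 287 targets over 8-fold lower belonged to such runs.

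The longest runs held 7 targets. In the lower run of 7 the summed level ran from 2927 to 8316 CPM across the control libraries and from 241 to 1007 CPM at 10 mg/L, and its members' log2 fold changes lay between -5.10 and -1.61. With ions its sum ran from 49.1 to 832 CPM and at 1 mg/L from 639 to 2256 CPM. In the higher run of 7 the sum ran from 1073 to 3629 CPM in control and from 4152 to 5558 CPM at 10 mg/L, with members' log2 fold changes of 0.95 to 1.88. At 1 mg/L it ran from 2342 to 5273 CPM and with ions from 1638 to 4690 CPM, overlapping the control range in each case. KZS16927 belonged to a lower run of 6, all over 8-fold lower. Its summed level ran from 75.9 to 2631 CPM in control, from 3.73 to 14.5 CPM at 10 mg/L, from 17.4 to 882 CPM at 1 mg/L and from 12.9 to 96.6 CPM with ions. In these 3 runs the control and the exposed libraries did not overlap, which the choice of members called the same way favours. Of their members, 5, 4 and 2 held fractional counts in at least 1 library.

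The median spread between replicates was smaller within LCO 10 mg/L than within control, a difference that was not tested. The median SD of log2 CPM within control was 0.28 over targets called higher, 0.23 over those called lower and 0.32 over those not called. Within LCO 10 mg/L it was 0.20, 0.21 and 0.23. Over the 935 targets called over 2-fold lower it was 0.74 within control and 0.40 within LCO 10 mg/L, and over the 723 called over 2-fold higher 0.56 and 0.35. Both sets were chosen by their values in these libraries, and the prior count in log2 CPM narrows the spread of low values. The labels do not say whether pools were kept in separate vessels, and p-values measure the spread between these pools.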

How the data were processed

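RNA of whole daphnids was sequenced with standard Illumina libraries, per the labels' protocols. The authors deposited 1 table per library with estimated counts per target (not normalized, per the file headers), TPM (depth- and length-normalized, per the file headers), target length and effective length. No source used here names the counting program, annotation or build. The members, lists and tests were chosen with earlier results of these data known. Preset lists by product name could not be run without gene names.

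After rounding, estimated counts went through edgeR 4.0.16 (R 4.3.3), with filterByExpr on the group factor (min.count 10, min.total.count 15), TMM and a single quasi-likelihood fit of all 20 libraries, two-sided with Benjamini-Hochberg adjustment over 16163 targets and a threshold of 0.05. SEs are the log2 fold change over the square root of F. Named targets were, in each direction among called targets whose groups did not overlap, that with the largest change of mean TPM and that with the largest log2 fold change at a mean of at least 5 CPM. Per-library values used exact permutation tests (scipy 1.17.1). Log2 CPM used a prior count of 2. Counts were also simulated for 15645 targets in the 10 compared libraries. At each size 50 targets were changed, all above a mean of 5 CPM. An edgeR fit of only the 2 groups recovered 10% of 1.5-fold, 66% of 2-fold, 92% of 4-fold and 96% of 8-fold changes. Far fewer targets were changed there than were called here, so these rates do not carry over to the fit of 20 libraries. No 2 libraries of a group were identical (smallest chi-square per degree of freedom 21.6).

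Alternatives were DESeq2 1.42.0 size factors in edgeR, the DESeq2 Wald test, no filter, a mean of at least 5 CPM, only the 2 groups, a block for replicate number, log2(TPM + 1) in limma 3.58.1, and each of the 10 libraries left out. Alternatives for bins by abundance and length, 8-fold counts and identifier order were chosen after seeing the data.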

Additional observations from a re-analysis of the deposited data

Results flagged for a closer look

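In 32 groups of 5 values, 5 had an end value whose gap to its neighbour exceeded 0.71 of the group's range, which happens by chance in about 1 of 20 groups. KZS10999 at 1 mg/L had replicate 5 at 11.6 CPM above the other libraries (ratio 0.963). KZS16927 with ions had replicate 5 at 6.7 CPM above the others (ratio 0.922). The share of counts in the 100 most abundant targets at 10 mg/L was lowest in replicate 5, at 28.9% (ratio 0.832). The summed CPM of the targets over 8-fold higher was highest in control replicate 1, at 860 CPM (ratio 0.759), and at 1 mg/L in replicate 5, at 2574 CPM (ratio 0.902).

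Between exposures, KZS00010 was higher at 10 mg/L LCO than at 1 mg/L by a log2 fold change of 1.35 and than with ions by 2.22. KZR97914 and KZS16927 were lower at 10 mg/L than at 1 mg/L by -1.16 and -8.23. Each difference was itself tested with edgeR and passed the threshold of 0.05 after adjustment. These targets were named for their change at 10 mg/L, which favours a difference of the same libraries from the other exposures.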

How the results depend on the processing

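The 4 named targets kept direction and call under all 17 alternative fits, with log2 fold changes of 1.55 to 1.73 for KZS00010, 4.06 to 6.09 for KZS10999, -1.46 to -1.05 for KZR97914 and -10.72 to -5.49 for KZS16927. The replicate number as a block gave 3054 called targets (1317 higher, 1737 lower, 168 over 8-fold lower, and a difference of 2.57 in place of 6.06 percentage points between directions in the bin of longest targets), against 4838 in the same 2 groups without it. Same-numbered libraries did not deviate together (correlations from -0.245 to 0.135 over 5 pairs), so the numbers were not taken as pairs. At a mean of at least 5 CPM, 341 targets were over 2-fold higher, 601 over 2-fold lower and 23 over 8-fold higher. In limma on log2(TPM + 1), which understates changes of low targets, these were 389, 622 and 23, with 101 over 8-fold lower. Without a filter 90 were over 8-fold higher. With each library left out, the called targets ranged from 3902 to 5030, those higher from 1733 to 2256, those lower from 2169 to 2788, and those over 8-fold higher from 35 to 83. The difference in detected targets, by CPM without TMM factors, was 181 at 0.1 CPM (exact permutation test, adjusted p = 0.079). That in mean target length turned to -68.8 bases weighted by TPM. The cause of this turn was not tested. Held-out medians on targets over 2-fold changed averaged 1.42 and -1.73 at 10 mg/L, and 0.18 and -0.18 in control, where single libraries lay as low as -0.89. In the bin of shortest targets, the percent called higher minus lower was -0.25, turned to 0.12 without a filter and in DESeq2's Wald test, and ranged from -1.48 to 0.31 with a library left out (0.31 without control replicate 1).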
